A study of Mus musculus with 23 samples.

Results

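The loss of a single copy of Acss2 was examined in the whole mouse hippocampus by setting the 2 libraries of heterozygous mice (Het) against the 2 libraries of wild-type mice (WT) across all genes. The members were taken by genotype label, and they are 4 of the 23 libraries of the series. A further 2 libraries from mice without an intact copy (KO) were processed with them, entered the same fit, and are given beside them. All 6 came from C57BL6/J mice killed at baseline, that is, straight from the home cage without fear conditioning, and all carry the batch label B0. Het and KO mice descend from embryos in which exons 3 to 7 of Acss2 were removed at the one-cell stage, so the copy is missing in every tissue and from the start of development. The hippocampi were cut out by hand from thawed brains, and polyadenylated RNA was sequenced from 300 ng of total RNA. No age is stated in the labels, nor whether the 2 libraries of a genotype came from separate mice, so each p-value measures only the spread between these samples.

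ACSS2 is the acetyl-CoA synthetase of the cytosol and the nucleus. It joins acetate to coenzyme A, and the acetyl-CoA it makes can be used for fatty acid and sterol synthesis or, in the nucleus of neurons, for histone acetylation. Acetate reaches the enzyme from the blood, from other tissues and from histone deacetylation, while ATP-citrate lyase and the pyruvate dehydrogenase complex supply acetyl-CoA from glucose, and ACSS1 does the same step as ACSS2 inside mitochondria. The comparison asks how the hippocampal transcriptome at rest differs when 1 of the 2 copies is missing.

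The bases that the Het mice lack on 1 chromosome are shown because they define the genotype. In mm10, Acss2 lies on the plus strand of chromosome 2 at 155517948 to 155585724, and the 5 removed exons of transcript Acss2-201, all coding, lie between 155549191 and 155550469. They are printed below 5′ to 3′, in the order of the transcript.
Acss2 exon 3, chr2:155549191-155549282: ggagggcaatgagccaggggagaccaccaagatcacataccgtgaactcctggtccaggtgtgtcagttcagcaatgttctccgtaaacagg
Acss2 exon 4, chr2:155549476-155549579: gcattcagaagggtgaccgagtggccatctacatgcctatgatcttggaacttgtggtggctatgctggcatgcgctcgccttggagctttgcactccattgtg
Acss2 exon 5, chr2:155549799-155549871: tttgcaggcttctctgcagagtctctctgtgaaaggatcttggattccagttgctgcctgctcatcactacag
Acss2 exon 6, chr2:155550103-155550178: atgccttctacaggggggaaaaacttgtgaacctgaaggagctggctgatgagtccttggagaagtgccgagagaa
Acss2 exon 7, chr2:155550355-155550469: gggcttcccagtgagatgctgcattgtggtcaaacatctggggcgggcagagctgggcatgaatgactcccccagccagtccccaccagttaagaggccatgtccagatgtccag
Together the 5 exons hold 460 bases, which is 15.7% of the 2931 bases of the transcript, spread over 18 exons, and 21.9% of its coding length. Dividing 460 by 3 leaves a remainder of 1, so a transcript that skips them would be out of frame. Reads from the remaining exons are still counted for the gene wherever such a transcript is stable.

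The libraries held 18814460 to 26739792 counts in Het, 21927140 to 22094372 in WT and 22335270 to 27293661 in KO, and 15453 of 24985 gene symbols had enough reads to be tested. Levels are given as CPM, edgeR's read counts scaled to the TMM-adjusted library size, and differences as log2 values of Het minus WT with an approximate standard error. The Het libraries, here Het 1 and Het 2, differed more from each other than the WT libraries did. Of 14159 genes with a mean of at least 1 CPM, 299 (2.11%) differed by over 2-fold between the Het libraries, against 137 (0.968%) in WT and 238 (1.68%) in KO. Upper-layer neocortex markers were higher in Het 2 than in any other library, as is set out below, and each result that rests on it is given with and without it. The RNA of the inactive X chromosome, Xist, was at 677 and 663 CPM in WT, against 598 and 644 CPM in Het, but at 0.145 and 0.137 CPM in KO, and the Y-linked Ddx3y had 2 and 5 reads in Het, 0 in both WT libraries and 2783 and 1964 in KO. Both WT and both Het libraries thus have the Xist and Y-linked reads of females, and both KO libraries those of males. In every comparison with KO, genotype and sex therefore cannot be told apart, for genes of any chromosome.

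Acss2 itself stood at 60.9 and 60.3 CPM in WT, against 31.2 and 34.3 CPM in Het, with 6.73 and 7.02 CPM in KO. The 3 genotypes did not overlap, and both Het libraries lay near the midpoint of the other genotypes. The Het mean of 32.8 ± 2.2 CPM (SD, n = 2) was 0.541 of the WT mean, a log2 difference of -0.89 ± 0.071. The adjusted p of edgeR's quasi-likelihood test was 0.0777 and that of DESeq2 was 2.83e-10, so the call depends on the tool. Exons of Acss2os, Ggt7 and Gss overlap Acss2 on the opposite strand, and the library kit does not mark strand, so a part of these reads, KO included, may belong to those genes. Around Acss2 on chromosome 2, 25 listed genes were tested, Acss2 included, with a median of -0.01. At an unadjusted p under 0.05, 2 were higher and 2 lower (7.95% and 5.93% of all genes). Beside Acss2, 3 genes were among these. They were Myh7b, a slow-muscle myosin gene (9.65 and 9.67 CPM in WT, against 13.9 and 16.3 CPM in Het), the ribosome assembly factor gene Eif6 (0.16 ± 0.059) and the RNA-binding protein gene Rbm12 (-0.26 ± 0.094).

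Across all genes, edgeR called 0 of 15453 (0%) between Het and WT at an adjusted p under 0.05. An unadjusted p under 0.05 was given to 2145 genes (13.9%), of which 1229 (7.95%) were higher and 916 (5.93%) lower in Het, and 7780 (50.3%) had a log2 difference above 0. Both Het libraries lay above both WT libraries in 3662 genes (23.7%) and below both in 3539 (22.9%). DESeq2 called 143 of 12295 genes (1.16%), 93 higher (0.756%) and 50 lower (0.407%), and limma-voom called 0. The genes below are therefore described by their levels, and those called by DESeq2 are named as such.

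**Figure D1:**
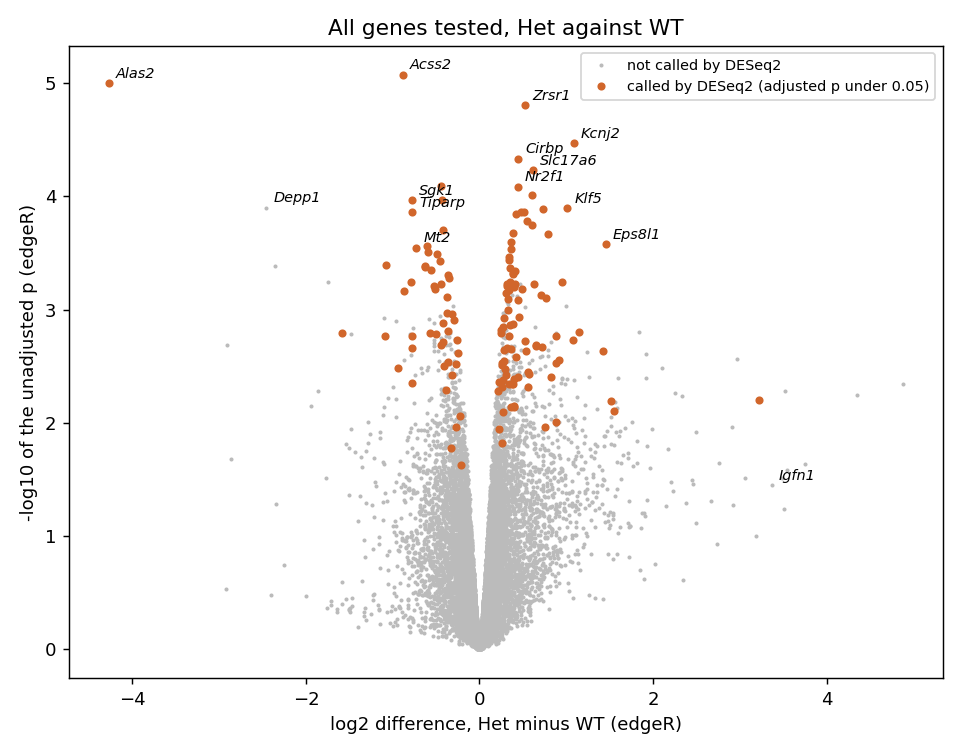
Log2 difference of Het minus WT (horizontal) against -log10 of the unadjusted edgeR p (vertical), 1 point per gene tested, with the 143 genes called by DESeq2 in orange. Alas2 and Acss2 have the smallest p-values on the lower side and Zrsr1 and Kcnj2 on the higher side, and Igfn1, far to the right, has a large difference with a p that is not small.

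The genes described first on the higher side are the 15 with the smallest p among those whose Het libraries both exceed both WT libraries. That the Het libraries lie close together in them is part of this choice. DESeq2 called each of the 15. Zrsr1, an imprinted gene that is read from the paternal copy and encodes a factor for recognition of the 3′ splice site, was at 85.7 and 84.6 CPM in WT, against 122.5 and 122.6 CPM in Het, with 89 and 88.8 CPM in KO. Its difference was 0.53 ± 0.047 (edgeR adjusted p = 0.0807). Commd1 overlaps it on the opposite strand. Kcnj2 encodes Kir2.1, an inward rectifier potassium channel that holds the resting potential of excitable cells. It stood at 10.1 and 10 CPM in WT, against 20.2 and 22.5 CPM in Het, with 8.97 and 10 CPM in KO, a 2.12-fold difference (log2 1.08 ± 0.11, edgeR adjusted p = 0.122). Both Het libraries were thus about double every WT and KO library. Kcnj16, which encodes Kir5.1, a partner subunit of glial potassium channels, is the next gene upstream of Kcnj2 on chromosome 11, with 38196 bases and no annotated gene between them. It was at 18.1 and 17.2 CPM in WT, against 27.1 and 26.5 CPM in Het, with 17.4 and 17.6 CPM in KO (0.60 ± 0.072). The other channels of the family are given further on.

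Several others of the 15 encode transcription and RNA regulators. Cirbp, the cold-inducible RNA-binding protein, was at 74.2 and 74 CPM in WT, against 100.4 and 101.8 CPM in Het (0.45 ± 0.047), with KO between at 82.8 and 81.6 CPM. Nr2f1, a nuclear receptor that patterns the cortex and hippocampus (COUP-TF1), was at 67.2 and 69 CPM in WT, against 90.6 and 94.3 CPM in Het, with 64.4 and 65.7 CPM in KO. Klf5, a zinc finger transcription factor, was low throughout, at 3.61 CPM in both WT libraries and 7.35 and 7.21 CPM in Het. Zfp36l2, which promotes decay of AU-rich mRNAs, was at 18.6 and 18.4 CPM in WT, against 31.7 and 30.1 CPM in Het (0.74 ± 0.092). Spry2, an inhibitor of receptor tyrosine kinase signalling, was at 48.9 and 48 CPM in WT, against 62.7 and 64.2 CPM in Het. Rps14, a ribosomal protein gene, stood 0.43 ± 0.054 higher, but genes of this kind have near-identical pseudogene copies that can take some of their reads.

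The rest of the 15 act in transmitter handling and in glia. Slc17a6, the vesicular glutamate transporter VGLUT2 of thalamic, subicular and other subcortical neurons, was at 25.4 and 24.4 CPM in WT, against 38.4 and 37.6 CPM in Het, with 32.2 and 30.5 CPM in KO (0.61 ± 0.067). Slc6a9, the glycine transporter GlyT1 of astrocytes, was at 35 and 36.2 CPM in WT, against 50.7 and 48.8 CPM in Het. Cplx3, a complexin of synaptic vesicle release that is abundant in subplate-derived neurons, was at 8.19 and 7.59 CPM in WT, against 13.7 and 13.6 CPM in Het. Ugt8a, which makes the galactolipids of myelin, was at 51.4 and 52.4 CPM in WT, against 74.7 and 73.1 CPM in Het (0.51 ± 0.064). Fabp7, the fatty acid-binding protein of astrocytes and radial glia, and Slc15a2, a peptide transporter, stood 0.55 ± 0.071 and 0.61 ± 0.080 higher. As values of comparison from the separate dorsal hippocampus experiment of the series, where tissue was cut differently and counts were normalized on their own, 5 WT home cage libraries held Slc17a6 at 2.44 to 14.7 CPM, Kcnj2 at 17.7 to 30.2 CPM and Zrsr1 at 85.1 to 94.5 CPM. The Het level of Kcnj2 thus lies within the range of WT mice in that experiment, and the Het level of Zrsr1 above it.

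The 15 genes with the smallest p on the lower side were led by Acss2 and Alas2. This erythroid enzyme starts haem synthesis in red cell precursors. It stood at 32.2 and 58.5 CPM in WT, against 2.34 and 2.34 CPM in Het, with 5.46 and 3.65 CPM in KO, a 19.3-fold difference between WT and Het (log2 -4.27 ± 0.35, edgeR adjusted p = 0.0777). The WT libraries stand apart here: Het and KO lie in the range of the dorsal WT libraries, 1.58 to 9.04 CPM. Another red cell gene moved with it, since Slc4a1, the band 3 anion exchanger, had 60 reads in WT, 8 in Het and 8 in KO, while the adult globin genes Hba-a1, Hba-a2, Hbb-bs and Hbb-bt are listed at 0 in all 6 libraries. Of the 12 genes of the blood list 4 were tested. The part of blood cells in the Alas2 difference was not tested, and Apex2 overlaps the gene on the opposite strand.

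Among the other lower genes, Sgk1 and several more are induced by glucocorticoids and are described with that list. Tiparp, an ADP-ribosyltransferase induced by the aryl hydrocarbon receptor and by neuronal activity, was at 28.2 and 29.5 CPM in WT, against 17.4 and 16.4 CPM in Het, with 29.9 and 25.4 CPM in KO (-0.78 ± 0.098, edgeR adjusted p = 0.122). Dusp5, a nuclear phosphatase that switches off ERK, was at 16.5 and 15.9 CPM in WT, against 9 and 6.43 CPM in Het, with 14 and 14.6 CPM in KO (-1.08 ± 0.16). Depp1, a FOXO target, was at 2.29 and 2.62 CPM in WT, against 0.533 and 0.372 CPM in Het, levels of few reads. Ntsr2, a neurotensin receptor found mainly in astrocytes, was at 113.7 and 117.1 CPM in WT, against 89.4 and 82.7 CPM in Het. Hopx, a cofactor of quiescent stem cells, was at 79.6 and 77.5 CPM in WT, against 56.4 and 47.5 CPM in Het. Gldc, the glycine decarboxylase of the glycine cleavage system, was at 55.7 and 57.4 CPM in WT, against 43.2 and 39.3 CPM in Het. The astrocyte list as a whole held 15 markers, of which 2 were higher and 4 lower at an unadjusted p under 0.05 (7.95% and 5.93% of all genes), with a median of -0.04. Its member Slc1a3, a glutamate transporter gene outside the 15, was at 691 and 684 CPM in WT, against 567 and 577 CPM in Het. Gstm1, a glutathione transferase with close paralogs (-0.45 ± 0.051), Tprkb, a subunit of the tRNA-modifying KEOPS complex that is overlapped by Nat8f1 (-0.43 ± 0.052), and Cpne2, a calcium-dependent membrane-binding copine (-0.60 ± 0.086), complete the set together with Mt1, Mt2 and Per2. DESeq2 called 14 of the 15, Depp1 having no adjusted value there.

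**Figure D2:**
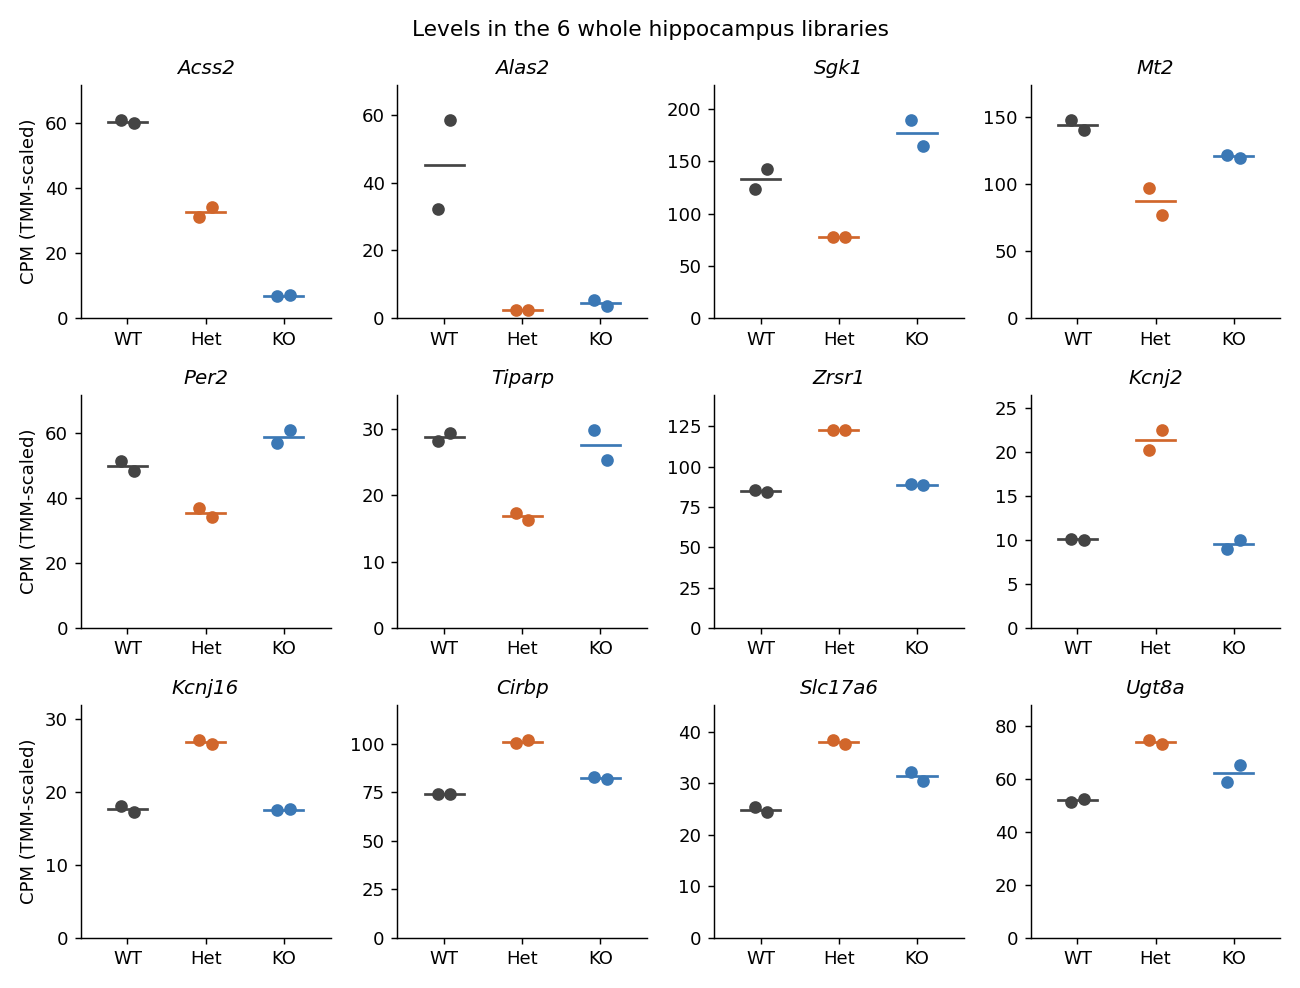
Level in CPM (vertical, each panel from 0) of 12 genes in the 2 WT, 2 Het and 2 KO libraries, with 1 point per library and a line at the group mean. Acss2 stands at 3 separate levels, the Het points of Kcnj2, Kcnj16 and Zrsr1 lie above both other genotypes, those of Sgk1, Per2 and Tiparp lie below both, and in Alas2 the WT points stand apart from Het and KO.

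Genes that glucocorticoid hormones induce tended to be lower in both Het libraries. The hormones act through the glucocorticoid receptor, a transcription factor that in the hippocampus follows the daily and stress-driven rhythm of corticosterone. Of 26 listed genes 25 were tested, with a median of -0.10 against 0.001 over all genes, and 12 lay below WT in both Het libraries while 3 lay above (22.9% and 23.7% of all genes). At an unadjusted p under 0.05, 9 were lower and 2 higher (5.93% and 7.95%), and DESeq2 called 7 lower (against 0.407% of all genes) and 0 higher. The median was -0.12 in Het 1 and -0.10 in Het 2. The fit without Het 2 gave -0.12, with 10 members lower and 1 higher at an unadjusted p under 0.05 (4.48% and 5.81%), so the direction did not come from Het 2. With a deep-layer neocortex score as a covariate the median was -0.18, but Ddit4 (-0.18) and Arrdc2 (-0.08) came nearer to 0. The slope of that score rests mainly on the gap between Het 1 and Het 2, and the summed deep-layer level was not higher in Het 2. Values under it are therefore uncertain. In the KO libraries the same median was 0.10 and 0.12, on the other side of WT.

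Sgk1, a serum and glucocorticoid-induced kinase that regulates ion channels, was at 124 and 143 CPM in WT, against 77.4 and 77.9 CPM in Het, with 189 and 164 CPM in KO (-0.78 ± 0.095, edgeR adjusted p = 0.122). The Het libraries were the lowest of the 6 and all but equal. The 5 dorsal WT libraries held it at 69.8 to 80.8 CPM, so the Het level is not low by that measure. The metallothioneins, zinc-binding proteins that glucocorticoids and metals both induce, came next. Mt2 was at 147 and 140 CPM in WT, against 96.6 and 77 CPM in Het, with 121 and 119 CPM in KO, and Mt1 at 217.3 in both WT libraries, 156 and 127 CPM in Het, with 179 and 173 CPM in KO. Their differences were -0.73 ± 0.10 and -0.62 ± 0.095, and Het 2 was the lower Het library for both. Ddit4, an inhibitor of mTOR signalling, was at 92.6 and 87 CPM in WT, against 64 and 52.3 CPM in Het, with 94.6 and 96.5 CPM in KO. The leucine zipper gene Tsc22d3 was at 88.3 and 95.2 CPM in WT, against 71 and 72.3 CPM in Het, and the arrestin-like Arrdc2 at 18.5 and 19.3 CPM in WT, against 13 and 13.4 CPM in Het. The clock gene Per1, which carries glucocorticoid control too, is the last of the 7 (-0.36 ± 0.070). Tsc22d3 and Arrdc2, like the next 2 genes, were named after their values were seen. The inhibitor of NF-kappaB Nfkbia stood at -0.40 ± 0.097 without a DESeq2 call, and the lipid droplet gene Plin4 went the other way, at 1.6 and 2.12 CPM in WT, against 3.2 and 3.31 CPM in Het.

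The promoter of Sgk1 is shown because it alone among the list holds the full palindrome to which the receptor binds as a dimer. RefSeq promoter windows run from 250 bases before to 50 after a start and were found for 22 of the list's genes. The palindrome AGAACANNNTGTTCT was searched on both strands. It occurs for 3 of 27025 symbols with a window (0.0111%), for 1 of 12015 genes tested here (0.00832%) and for 1 of the 22 (4.55%). The window below (GRCm38.p6, chr10:21993640-21993939, plus strand) belongs to 1 of the annotated Sgk1 starts, with the match, 189 to 175 bases before that start, in capitals.
Sgk1 promoter window: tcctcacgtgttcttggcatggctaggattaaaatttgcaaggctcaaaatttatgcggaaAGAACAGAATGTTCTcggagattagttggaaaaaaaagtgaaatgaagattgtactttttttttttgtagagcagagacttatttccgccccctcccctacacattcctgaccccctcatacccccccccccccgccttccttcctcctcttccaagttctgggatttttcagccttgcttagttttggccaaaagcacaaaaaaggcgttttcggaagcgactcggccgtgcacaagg
Its single arm AGAACA, also searched on both strands and contained in the palindrome, was found for 3 of the 22 genes (13.6%), Sgk1, Tsc22d3 and Sult1a1, against 21.3% of all symbols, so the arm was no more frequent in the list than elsewhere. A match is a run of letters in this window and not a measured binding site.

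In the circadian clock list DESeq2 called 2 of 19 genes lower, both period genes, and 1 higher (0.407% and 0.756% of all genes). Per2, a repressor of the core loop, was at 51.4 and 48.1 CPM in WT, against 36.7 and 34.1 CPM in Het, with 57 and 60.8 CPM in KO (-0.49 ± 0.072), and Per1 was at 117 and 112 CPM in WT, against 84.2 and 93.6 CPM in Het. The output factor Hlf stood at 188 and 174 CPM in WT, against 212 and 245 CPM in Het, and DESeq2 called it higher. The nuclear receptor gene Rora was at 47.2 and 44.9 CPM in WT, against 54.8 and 78.8 CPM in Het, so most of its difference lay in Het 2. Over the 19 genes of the list 4 were higher and 3 lower at an unadjusted p under 0.05 (7.95% and 5.93% of all genes), and the median was 0.02 (-0.08 without Het 2). With the neocortex covariate Per2 stood at -0.04. The labels do not state the hour at which each mouse was killed, and its part in these differences was not tested. Cirbp, which responds to body temperature, belongs to a list of 22 cold-induced and heat shock genes with a median of -0.05 (-0.03 without Het 2). Of these 22, 1 was higher and 3 lower at an unadjusted p under 0.05 (7.95% and 5.93% of all genes).

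The pathway that ACSS2 feeds showed small differences, mostly downward. Of 32 genes of acetyl-CoA supply 2 were higher and 6 lower at an unadjusted p under 0.05 (7.95% and 5.93% of all genes), with a median of -0.07 (-0.04 without Het 2), and Acss2 was the only member that DESeq2 called. The mitochondrial synthetase gene Acss1 was at 46.5 and 49.4 CPM in WT, against 40 and 34.5 CPM in Het, with 48.3 and 48 CPM in KO (-0.37 ± 0.083, edgeR adjusted p = 0.239). It was thus not higher where Acss2 was lower. Pdk2, a kinase that inhibits pyruvate dehydrogenase, stood at -0.25 ± 0.063 and the citrate synthase gene Cs at -0.18 ± 0.049. Sterol and fatty acid synthesis had a wider tilt. Of its 35 genes 25 lay below 0 and 10 above (50.3% of all genes lay above). Both Het libraries were below both WT libraries in 21 and above both in 4 (22.9% and 23.7% of all genes). At an unadjusted p under 0.05, 11 were lower and 1 higher (5.93% and 7.95% of all genes). The differences were small, with a median of -0.10 from the fit, -0.12 in Het 1 and -0.07 in Het 2, and the KO medians were -0.06 and -0.04. Msmo1, a sterol methyl oxidase, was at 109 and 106 CPM in WT, against 87.6 and 77.6 CPM in Het (-0.38 ± 0.068, called by DESeq2). The squalene epoxidase gene Sqle stood at -0.27 ± 0.068 and the fatty acid desaturase gene Fads2 at -0.22 ± 0.059. Scd1, the desaturase that makes monounsaturated fatty acids, was the 1 member higher at an unadjusted p under 0.05. It was at 169 and 170 CPM in WT, against 211 and 223 CPM in Het, with 205 and 215 CPM in KO (0.35 ± 0.054, called by DESeq2).

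The enzymes that write and erase histone acetylation had medians near 0. Of 15 histone acetyltransferase genes 1 was lower at an unadjusted p under 0.05 (5.93% of all genes), Kat7 at -0.17 ± 0.054, and the median was -0.01 (-0.06 without Het 2). Without Het 2, 1 was higher and 3 lower (5.81% and 4.48% of all genes). Of 18 histone deacetylase genes 0 had an unadjusted p under 0.05 in edgeR and 0 were called by DESeq2, with a median of 0.005. Genes of oxidative phosphorylation had a median of 0.006 over 38 members (0.06 without Het 2). At an unadjusted p under 0.05, 2 of them were higher and 0 lower (7.95% and 5.93% of all genes). Of 33 splicing factor genes 7 were higher and 1 lower at an unadjusted p under 0.05 (7.95% and 5.93% of all genes), led by Zrsr1 and followed by the SR protein gene Srsf5 (0.21 ± 0.051) and Luc7l3 (0.17 ± 0.051), and the median was 0.07 with and 0.08 without Het 2. The KO medians of that list, 0.09 and 0.11, lay on the same side of WT. Interferon-induced genes had a median of -0.01 (-0.25 without Het 2), 4 of 21 being lower at an unadjusted p under 0.05 (5.93% of all genes) and 0 higher (7.95%). The antiviral gene Rsad2 was the most different, at 4.76 and 7.91 CPM in WT, against 1.7 and 2.04 CPM in Het, with 2.28 and 1.92 CPM in KO, so that here too the WT libraries stood apart.

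Kcnj2 and Kcnj16 were not alone among inward rectifier channels, but the others were less even. Of 13 listed genes 7 were higher and 0 lower at an unadjusted p under 0.05 (7.95% and 5.93% of all genes), and DESeq2 called Kcnj2 and Kcnj16 (0.756%). The median was 0.12 in Het 1 and 0.41 in Het 2. Without Het 2 the fitted median was 0.12, with 3 members higher at an unadjusted p under 0.05 (5.81%), where with both it was 0.26. Kcnj12, which encodes Kir2.2, was at 8.83 and 8.76 CPM in WT, against 11.3 and 15.3 CPM in Het, and Kcnj4, which encodes Kir2.3 of forebrain neurons, at 82.5 and 81.1 CPM in WT, against 88.2 and 109.1 CPM in Het. Both thus followed Het 2 more than Het 1, unlike the neighbouring pair on chromosome 11.

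**Figure D3:**
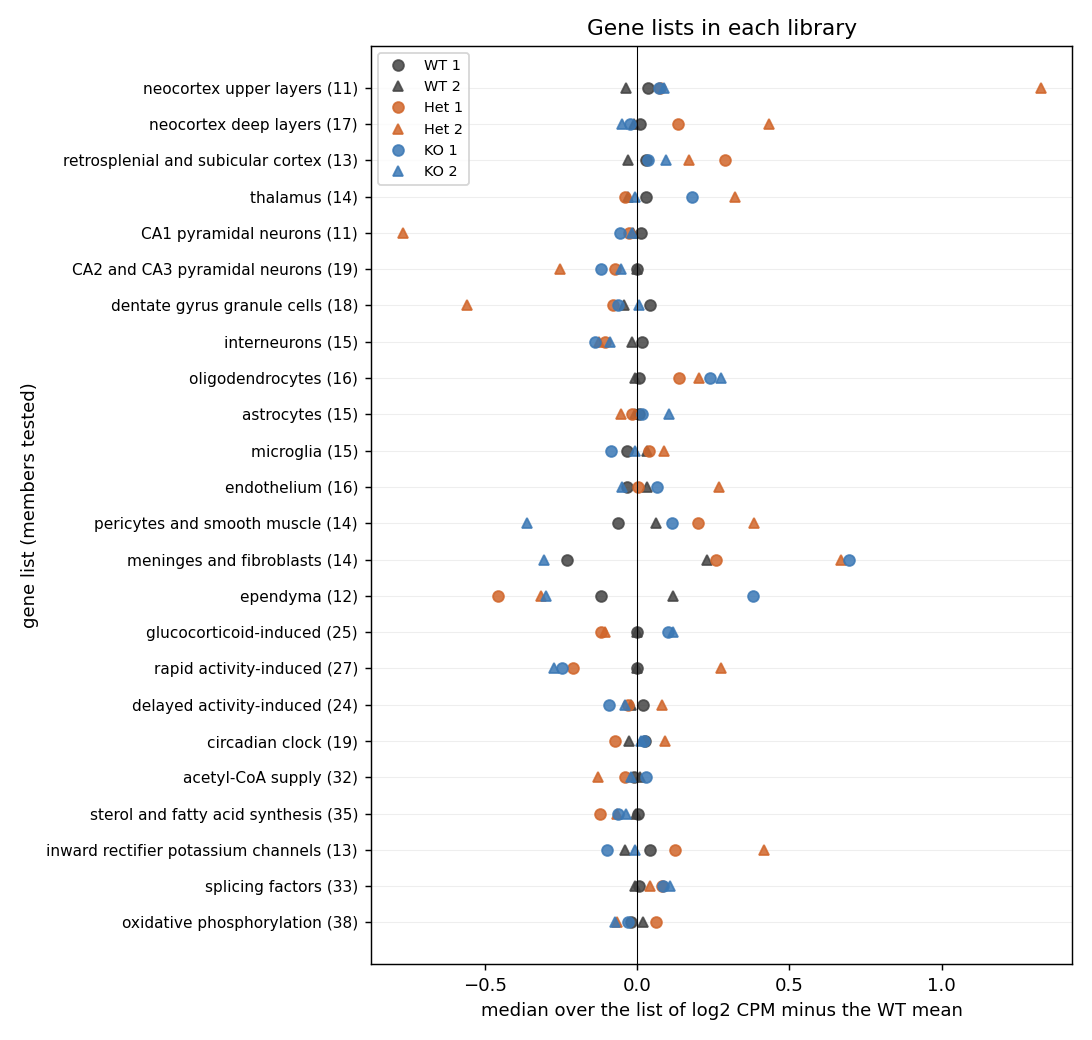
Median over each gene list of log2 CPM minus the WT mean (horizontal), 1 point per library, with the number of genes tested in brackets. Het 2 stands apart in the neocortex, CA1 and dentate gyrus lists, while both Het libraries lie below 0 in the glucocorticoid-induced list and above 0 in the oligodendrocyte list.

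Most myelin genes on the oligodendrocyte list were a little higher in both Het libraries than in WT. Oligodendrocytes wrap axons in myelin, and the fimbria and alveus of the hippocampus are rich in them. Of 16 markers 15 lay above 0 (50.3% of all genes), and 13 were above WT in both Het libraries (23.7%). At an unadjusted p under 0.05, 8 were higher and 0 lower (7.95% and 5.93%), and DESeq2 called 5 higher (against 0.756% of all genes). The summed level overlapped, at 7631 and 8611 CPM in WT, against 8515 CPM in Het 1 and 9593 CPM in Het 2, with 11060 and 9387 CPM in KO. That overlap rests on Enpp2, which differed by more between the WT libraries than the whole sum did. Enpp2, the member below 0 and named after its values were seen, is a marker of choroid plexus as well and was at 149.5 and 1303 CPM in WT, against 175.1 and 756.6 CPM in Het, with 2199 and 180.7 CPM in KO. Cldn11, of the tight junctions of myelin, was at 201.4 and 200.9 CPM in WT, against 243 and 263 CPM in Het. Ermn, a cytoskeletal protein of myelin overlapped by Galnt5, was at 60.4 and 61.9 CPM in WT, against 76.8 and 80.5 CPM in Het. Aspa, the enzyme that releases acetate from N-acetylaspartate in oligodendrocytes and so supplies a substrate of ACSS2, was at 14.8 and 16.5 CPM in WT, against 23.5 and 21.5 CPM in Het, with 19.3 and 19.4 CPM in KO. The KO libraries had list medians of 0.24 and 0.27, above the 0.14 and 0.20 of Het. By list median Het thus lay between WT and KO, but single members did not all follow that order. The Het mean was above KO in Ugt8a (73.9 against 62.1 CPM) and Aspa (22.5 against 19.3 CPM). It was close to KO in Cldn11 (252.8 against 252.2 CPM) and Ermn (78.65 against 77.24 CPM), and below KO in Enpp2 (465.9 against 1190 CPM). In tissue RNA more cells of a type and more RNA per cell cannot be told apart.

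Other glia and the vessels were covered by lists of their own. Of 15 microglia markers 3 were higher and 0 lower at an unadjusted p under 0.05 (7.95% and 5.93% of all genes), with a median of 0.06 (0.04 without Het 2). They were led by the lysosomal protease Ctss (47.6 and 51.4 CPM in WT, against 64 and 65.2 CPM in Het, called by DESeq2). The endothelial tight junction gene Cldn5 was at 28.2 and 33.1 CPM in WT, against 41 and 43.5 CPM in Het, with 26.9 and 24.1 CPM in KO, while the median of 16 endothelial markers, 0.15, was 0.00 without Het 2. Pericyte and smooth muscle markers, of the vessel wall, had a median of 0.33 (0.20 without Het 2), and 12 of 14 lay above 0 (50.3% of all genes). At an unadjusted p under 0.05, 2 of these markers were higher and 0 lower (7.95% and 5.93%). They summed to 326.4 and 345 CPM in WT, against 370.7 and 411.5 CPM in Het, with 352.8 and 280.9 CPM in KO. Markers of ependyma, the ciliated lining of the ventricles, had a median of -0.44 (-0.47 without Het 2), and 11 of 12 lay below 0. At an unadjusted p under 0.05, 0 of the ependyma markers were higher and 1 lower (7.95% and 5.93% of all genes). They summed to only 51.14 and 64.28 CPM in WT, against 41.06 and 45.89 CPM in Het, with 75.36 and 47.15 CPM in KO. Interneuron markers had 1 higher and 6 lower of 15 at an unadjusted p under 0.05 (7.95% and 5.93% of all genes) and a median of -0.13 (-0.11 without Het 2), with the GABA-synthesizing Gad2 at 153 and 151 CPM in WT, against 137 and 133 CPM in Het. The Dlx6 antisense RNA Dlx6os1, overlapped by Gm27699 and Gm27905, stood at -0.41 ± 0.089. The homeobox gene Dlx1, of the same lineage, stood at 0.32 ± 0.087. KO medians of the interneuron list, -0.14 and -0.09, were like those of Het, -0.10 and -0.13.

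The labelled tissue was borne out by its own markers in all libraries, but the share of neighbouring cortex was uneven. Upper-layer neocortex markers summed to 348 to 380.5 CPM in 5 of the 6 libraries and to 663 CPM in Het 2. Lamp5 was at 34.9 and 34.3 CPM in WT, against 38.1 CPM in Het 1 and 138 CPM in Het 2. Igfn1, an immunoglobulin-domain gene of upper layers, was at 42 CPM in Het 2 and at no more than 3.47 CPM in the other 5. The median of the list was 0.08 in Het 1 and 1.32 in Het 2. The fit gave 0.80 with both and 0.002 without Het 2. Deep-layer markers had a median of 0.22 (0.13 without Het 2), although their sum was not higher in Het 2, with 1011 and 1044 CPM in WT, against 1079 CPM in Het 1 and 949 CPM in Het 2 (KO 1037 and 980 CPM). Tbr1, a transcription factor of layer 6 and of the subiculum, differed in both Het libraries, with 48.3 and 51 CPM in WT, against 70.8 CPM in Het 1 and 111 CPM in Het 2 (0.88 ± 0.19, called by DESeq2), and Foxp2 stood at 2.15 and 2.26 CPM in WT, against 3.3 CPM in Het 1 and 9.51 CPM in Het 2.

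Retrosplenial and subicular markers did not follow Het 2 in this way. The median over 13 genes was 0.29 in Het 1 and 0.17 in Het 2. The fit gave 0.18 with both and 0.29 without Het 2. At an unadjusted p under 0.05 in edgeR, 2 were higher and 0 lower (7.95% and 5.93% of all genes). Slc17a6, given above, and the zinc finger gene Tshz2 are the 2 members of the list that DESeq2 called higher (0.756% of all genes). Tshz2 was at 110.4 and 95 CPM in WT, against 140.3 CPM in both Het libraries and 117.5 and 127.7 CPM in KO. The part of the cut of the tissue in the differences of Slc17a6, Tshz2, Tbr1 and Cplx3 was not tested.

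Markers of hippocampal subfields were low in Het 2 by the same measure. CA1 markers summed to 987 and 961 CPM in WT, against 955 CPM in Het 1, 679 CPM in Het 2, with 907 and 922 CPM in KO, and their median was -0.35 with both Het libraries and -0.03 without Het 2. Fibcd1, a chitin-binding receptor gene of CA1 neurons, was at 195 and 183 CPM in WT, against 167 CPM in Het 1 and 78.4 CPM in Het 2, and Gpr161, a ciliary receptor, at 97.6 and 93.8 CPM in WT, against 88 CPM in Het 1 and 41.7 CPM in Het 2. Granule cell markers of the dentate gyrus summed to 909 and 854 CPM in WT, against 817 CPM in Het 1 and 633 CPM in Het 2, with a median of -0.31 that was -0.08 without Het 2. Their member C1ql2, a synaptic organizer of mossy fibres, was at 84.8 and 80.9 CPM in WT, against 70.5 CPM in Het 1 and 33.8 CPM in Het 2. CA2 and CA3 markers had a median of -0.23 (-0.07 without Het 2), and their imprinted member Nnat, a membrane proteolipid, was at 408 and 383 CPM in WT, against 289 CPM in Het 1, 159 CPM in Het 2, with 344 and 339 CPM in KO. In each of these 4 genes Het 1 lay below both WT libraries and Het 2 much further below, so a mean of the Het libraries describes neither.

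The number of calls depended on which Het library was used, and the part of the uneven tissue in that was not tested. With Het 2 alone set against WT (Het 1 left out), edgeR called 1424 of 15814 genes (9.0%), 788 higher (4.98%) and 636 lower (4.02%). With Het 1 alone it called 0, with 1616 genes (10.3%) at an unadjusted p under 0.05, 912 higher (5.81%) and 704 lower (4.48%), and leaving out any WT or KO library also gave 0. A Het library that is left alone is assumed to vary like the other genotypes.

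**Figure D4:**
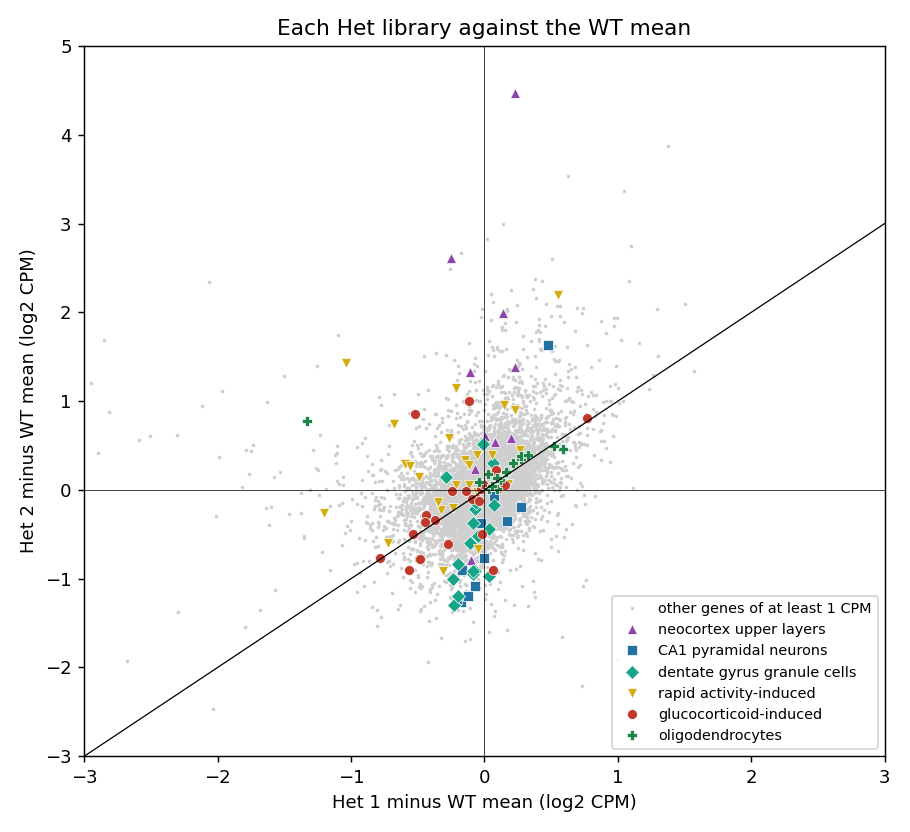
Log2 CPM minus the WT mean in Het 1 (horizontal) against the same in Het 2 (vertical) for 14153 genes with a mean of at least 1 CPM, with 6 gene lists in colour and the line of equal values (6 genes outside the frame, Alas2 and Ttr among them, are not drawn). Neocortex markers lie high and CA1 and dentate gyrus markers low along the Het 2 axis near 0 on the Het 1 axis, while glucocorticoid-induced and oligodendrocyte genes lie nearer the line.

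Rapid activity-induced genes, which neurons transcribe within minutes of firing, had list medians of unlike sign in the Het libraries. Their median over 27 genes tested was -0.21 in Het 1 and 0.27 in Het 2, and -0.25 and -0.27 in KO. At an unadjusted p under 0.05, 4 were higher and 3 lower with both Het libraries (7.95% and 5.93% of all genes). The fitted median was -0.22 with Het 1 alone and 0.27 with Het 2 alone (-0.002 and -0.004 over all genes). Fos was at 23.1 and 25 CPM in WT, against 20.7 CPM in Het 1, 53.1 CPM in Het 2, with 17.2 and 16.5 CPM in KO, and Egr2 at 4.53 and 4.61 CPM in WT, against 2.18 CPM in Het 1 and 12.5 CPM in Het 2. The phosphatase gene Dusp1 and the cell cycle inhibitor Cdkn1a showed the same order, with Het 2 above Het 1 by 1.12 and 1.38 on the log2 scale. These 4 genes, named after their values were seen, overlap between the genotypes and carry no common Het difference. Both Het libraries lay above both WT libraries in 6 of the 27 genes and below both in 6 (23.7% and 22.9% of all genes). Among these 12 were Ier5, at 50 and 48.4 CPM in WT, against 59.3 and 67.3 CPM in Het, the kinase Sik1, at 18.9 and 21.5 CPM in WT, against 12.2 and 13.3 CPM in Het, and the repressor Klf10 (-0.27 ± 0.072). Of 24 delayed activity genes 1 was higher and 4 lower at an unadjusted p under 0.05 (7.95% and 5.93% of all genes), with a median of 0.03 (-0.03 without Het 2). They included Tiparp, the nuclear receptor gene Nr4a3 (128 and 120 CPM in WT, against 94.2 CPM in Het 1 and 57.8 CPM in Het 2) and the neurotrophin gene Bdnf (68.3 and 65.7 CPM in WT, against 59.1 CPM in Het 1 and 42.3 CPM in Het 2). Neocortex markers were high in the same library as Fos and Egr2, and the part of the neocortex in their levels was not tested.

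Choroid plexus and meninges, which border the hippocampus, varied by library more than by genotype. The 16 choroid plexus markers summed to 195 and 4018 CPM in WT, against 221 and 1801 CPM in Het, with 6509 and 223 CPM in KO. Ttr, its thyroid hormone carrier, was at 8.1 and 2322 CPM in WT, against 13.3 and 871.5 CPM in Het, so its fitted difference of -1.40 ± 2.7 describes no genotype. All 16 markers had a fitted difference below 0, and 0 had an unadjusted p under 0.05 in edgeR. Meningeal markers summed to 679 and 919 CPM in WT, against 1036 and 1305 CPM in Het, with 1291 and 728 CPM in KO, and the Het median was 0.43 (0.25 without Het 2). Slc22a6, an organic anion transporter of the meninges, was at 3.52 and 3.93 CPM in WT, against 7.67 and 12.2 CPM in Het (called by DESeq2), and Ptgds, the prostaglandin D synthase of meninges and oligodendrocytes, at 289 and 395 CPM in WT, against 558 and 739 CPM in Het.

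Which genes set Het apart from both other genotypes was asked with a second contrast of the same fit, Het minus the mean of WT and KO. It shares its libraries with the first and is no independent support of it. EdgeR called 7 of 15453 genes (0.0453%), 6 higher (0.0388%) and 1 lower (0.00647%), and an unadjusted p under 0.05 was given to 2499 (16.2%), 1506 higher (9.75%) and 993 lower (6.43%). DESeq2 called 258 of 12675 genes (2.04%), 159 higher (1.25%) and 99 lower (0.781%). For 3 of the 7 the KO level was low: Xist, Acss2 and Eps8l1. Eps8l1, an adaptor of actin remodelling, was at 8.83 and 7 CPM in WT, against 23.5 and 20 CPM in Het, with 1.08 and 1.73 CPM in KO, so the Het libraries lay above WT and WT above KO (2.71 ± 0.18, edgeR adjusted p = 0.0178). The other 4 had WT and KO on the same side of Het. Zrsr1 (0.49 ± 0.040), Kcnj2 (1.13 ± 0.090) and Nr2f1 (0.48 ± 0.043) were higher in Het, with edgeR adjusted p-values of 0.0325, 0.0325 and 0.0454. Sgk1 was the gene called lower, at -0.98 ± 0.085 (edgeR adjusted p = 0.0409). Leaving out Het 1 raised the count of calls to 1622, and leaving out any other library gave 1 to 3. In the 4 genes the widest gap between the Het libraries, that of Kcnj2, was 0.15 on the log2 scale. The test favours genes whose Het libraries lie close together, so a small gap is part of this choice.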

How the data were processed

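The authors deposited whole-number read counts per gene symbol. Per the submitters' processing notes, the genome build was mm10 and the tools included HTSeq 0.9.1, SAMtools 1.1 and STAR, with no role stated. Normalized values deposited beside the counts were left out. In R 4.3.3, edgeR 4.0.16 fitted the 6 whole hippocampus libraries by genotype with TMM scaling, filterByExpr (count minimum 10, total minimum 15) and 3 residual degrees of freedom. The quasi-likelihood test was two-sided, with Benjamini-Hochberg adjustment over all genes tested and a threshold of 0.05. A standard error is the size of a log2 difference divided by the square root of F. Per-library differences use log2 CPM with a prior count of 2. DESeq2 1.42.0 and limma 3.58.1 (voom) were alternatives, among 14 in all. The scripts were tested on simulated counts. Gene positions are from GENCODE M21, and promoters from RefSeq. Exons of other genes also overlap named genes for which this is not stated above. Examples on the opposite strand are Nr2f1 (A830082K12Rik), Slc6a9 (B4galt2, Ccdc24 and Gm17114), Eps8l1 (Gm15494), Tiparp (4931440P22Rik) and Myh7b (Trpc4ap). On the same strand, Cpne1 and Gm28036 overlap Rbm12.

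Named genes were Acss2, the 15 with the smallest p on each side whose Het and WT libraries did not overlap, up to 4 of each list by p or by the gap between the Het libraries, the 10 smallest DESeq2 adjusted p on each side and those called in Het against the mean of WT and KO. Of 34 gene lists, counts and medians are given with no test. The members and lists were chosen with earlier results of these data known. Replicates of each genotype differed by more than sampling noise (chi-square per gene 8.74 to 17.4 over genes with at least 20 reads) and were each counted as 1.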

Additional observations from a re-analysis of the deposited data

How the results depend on the processing

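The fit rests on 2 libraries a genotype and 3 residual degrees of freedom, and 14 alternatives were run. The count of 0 calls in Het against WT became 143 with DESeq2 and 3 with no filter on low counts, and ran from 0 to 1424 with 1 library left out. Het against the mean of WT and KO gave 7 calls, 258 with DESeq2, 24 with no filter, 0 with the stricter filter, 0 with the neocortex covariate and 1 to 1622 with 1 library left out. Acss2 (-0.885) passed with DESeq2 (-0.887), with no filter (-0.882, edgeR adjusted p = 0.0307) and without Het 1 (-0.822, edgeR adjusted p = 0.00292), and with 1 library left out ran from -0.959 to -0.822. Same-numbered libraries deviated together for WT and Het (r over genes 0.424) but in opposite directions for WT and KO (-0.762) and for Het and KO (-0.440). The numbers were therefore not taken to pair them. These signs set WT 2, Het 2 and KO 1 against WT 1, Het 1 and KO 2, the split also seen in the choroid plexus sums. The replicate block follows the numbers and so does not describe that split. With the replicate block there were 0 calls and 1627 unadjusted p-values under 0.05 in Het against WT, and 1 call in the second contrast. Of 88 single genes, 61 kept their direction in every alternative and 27 did not. The neocortex covariate, a deep-layer score whose slope rests mainly on the gap between Het 1 and Het 2, reversed Zfp36l2 (-0.004), Gldc (0.046), Rora (-0.470), Lamp5 (-1.332), Igfn1 (-8.368), Fibcd1 (1.482), Gpr161 (1.228), C1ql2 (0.913), Nnat (0.233), Cldn5 (-0.142), Slc22a6 (-2.118), Ptgds (-2.877), Egr2 (-2.964), Fos (-1.616), Dusp1 (-1.192), Cdkn1a (-2.161), Slc1a3 (0.269), Kcnj12 (-0.519), Kcnj4 (-0.201), Fads2 (0.190), Ier5 (-0.117), Nr4a3 (0.757), Bdnf (0.778), Dlx6os1 (0.115) and Dlx1 (-0.134), and under it 471 genes had an unadjusted p under 0.05. With the same covariate Ttr stood at -45.297 and Enpp2 at -17.071, against -1.395 and -0.639 in the main fit. Among the 61, the covariate brought Per2 (-0.036), Msmo1 (-0.038), Acss1 (-0.050), Arrdc2 (-0.079), Hopx (-0.084) and Ddit4 (-0.183) nearer to 0, and these are examples. Further examples are Cs, Depp1 and Dusp5, whose own values nearest to 0 over all alternatives were -0.021, -0.201 and -0.243. With 1 library left out, Igfn1 ran from -0.021 to 4.527, Egr2 from -1.066 to 1.448, Fos from -0.216 to 1.142, Dusp1 from -0.124 to 1.001 and Cdkn1a from -0.532 to 0.857, each lowest without Het 2, Enpp2 from -2.061 without Het 2 to 1.640 without WT 2 (0.058 without Het 1), and Ttr from -6.467 without Het 2 to 5.772 without WT 2. The cause was not tested. Of 475 alternatives of list medians, 404 moved by less than the spread and 71 by more. Genes of few reads, such as Depp1 and Slc4a1, are limited by depth.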
